A study of Mus musculus with 6 samples.

Results

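The aryl hydrocarbon receptor (AHR) and the core genes of its pathway were described in CD8+ T cells expanded toward an effector or a tissue-resident memory-like state. The 7 genes, of 57126 in the deposited counts, were chosen by name as the receptor (*Ahr*), its DNA-binding partner (*Arnt*), its repressor (*Ahrr*), and its classical targets (*Tiparp*, *Cyp1a1*, *Cyp1b1*, and *Nqo1*), and all 7 were found. They were chosen with the contrast between the groups already known, so their levels and differences are a description and carry no p-value here. AHR is a transcription factor held in the cytosol by chaperones until it binds a ligand, such as a dioxin or a tryptophan derivative. It then enters the nucleus, pairs with ARNT on sites with the core GCGTG, and turns on enzymes of the cytochrome P450 1 family together with its own inhibitors AHRR and TIPARP. The receptor is known in T cells for its roles in barrier tissues, where it takes part in the persistence of resident CD8+ cells.

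The 6 RNA samples came from CD8+ T cells of OT-I mice, whose transgenic receptor recognizes an ovalbumin peptide. The cells were taken from lymph nodes and spleens and harvested after culture, on day 6. All samples were stimulated with nano-aAPCs, nanoparticles that carry peptide-MHC and anti-CD28. The 3 TEff samples were cultured with IL-2 and the 3 TRM-like samples with IL-2, mouse IL-15, and mouse TGF-β. The effects of IL-15 and TGF-β therefore cannot be told apart. The authors' sequencing methods name mouse IL-2, but their culture methods name human IL-2. Total counts ran from 18319013 to 23622621 per sample. The TRM-like cells are thus an in vitro model, and whether the replicates came from separate mice or cultures is not given in the sources used here, so p-values measure only the spread between these samples.

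The TRM-like libraries differed among themselves in ways that touch the low values below. Of 1562 olfactory, vomeronasal, and trace amine receptor genes, taken as silent in T cells, 2.94% to 3.52% had a count in the TEff libraries and 3.14% in TRM-like replicate 3, but 61.4% and 65.2% had one in TRM-like replicates 1 and 2. TRM-like replicate 3 stood apart from the other two in many genes. Without it, 3579 of 25478 genes passed the threshold (adjusted p below 0.05 and absolute log2 fold change above 0.58, edgeR's quasi-likelihood test), or 14%, against 786 of 26154 with it, or 3.01%. Values without that library are therefore given beside results that it moves. That fit compares TEff samples only with TRM-like replicates 1 and 2, the libraries with reads on many silent genes. In it, the group difference and this difference between libraries cannot be told apart. T cell markers (7 genes) summed to 2104 to 2259 CPM (counts scaled to library size) in TEff and 2583 to 3124 in TRM-like samples, and 1 of them, *Cd8a*, passed the threshold. *Cd4* was at most 0.111 CPM in any sample. Of 26 markers of B, myeloid, dendritic, NK, red, and stromal cells, 17 were tested and 0 passed it with edgeR, DESeq2, or limma-voom, against 6 at an unadjusted p below 0.05 (edgeR). Without TRM-like replicate 3, 3 of them passed (edgeR), *Cd79b* at a log2 fold change of 0.59 (adjusted p = 0.0290), *Adgre1* at 3.44 (adjusted p = 0.0359), and *Klrb1c* at -0.94 (adjusted p = 0.0299). *Adgre1* had only 1, 0, and 0 counts in TEff replicates 1, 2, and 3 and 5, 6, and 0 in the TRM-like replicates. Its TRM-like reads thus lay in the libraries with reads on many silent genes. *Hba-a1* and *Hba-a2* were at 0 throughout, and the NK markers summed to 9.83 to 22.0 CPM in TEff samples, 8.77 and 6.95 CPM in TRM-like replicates 1 and 2, and 0.0922 CPM in TRM-like replicate 3. The part of these differences in the results below was not tested.

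The promoters of 4 members are shown because the genes answer to the same receptor but behaved differently in these samples. Each runs from 250 bases before to 50 bases after the RefSeq start site, is written 5′ to 3′ along the gene, and comes from RefSeq's GRCm38.p6 table. Each sequence matched the GRCm39 genome exactly and once, and its position there is given. Capitals mark GCGTG, the core that AHR and ARNT bind, or its complement CACGC.
Ahrr, chr13:74440401-74440700, minus strand: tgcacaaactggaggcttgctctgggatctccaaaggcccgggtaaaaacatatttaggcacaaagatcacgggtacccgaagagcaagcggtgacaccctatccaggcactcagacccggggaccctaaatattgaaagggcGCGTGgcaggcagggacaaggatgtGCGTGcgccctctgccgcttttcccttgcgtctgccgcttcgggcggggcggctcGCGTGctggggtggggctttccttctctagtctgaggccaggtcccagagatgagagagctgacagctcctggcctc
Tiparp, chr3:65435618-65435917, plus strand: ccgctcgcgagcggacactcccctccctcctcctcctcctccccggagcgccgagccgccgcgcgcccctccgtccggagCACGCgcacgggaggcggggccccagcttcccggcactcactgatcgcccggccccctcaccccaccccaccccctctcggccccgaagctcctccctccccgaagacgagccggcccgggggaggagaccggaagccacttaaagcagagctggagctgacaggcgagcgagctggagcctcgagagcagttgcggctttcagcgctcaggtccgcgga
Cyp1a1, chr9:57604646-57604945, plus strand: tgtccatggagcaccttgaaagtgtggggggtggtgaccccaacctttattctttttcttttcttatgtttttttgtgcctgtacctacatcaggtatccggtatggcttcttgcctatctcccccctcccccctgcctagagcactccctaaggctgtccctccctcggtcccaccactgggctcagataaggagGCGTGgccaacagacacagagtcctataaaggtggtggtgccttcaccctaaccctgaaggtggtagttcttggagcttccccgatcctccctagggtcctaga
Cyp1b1, chr17:80022441-80022740, minus strand: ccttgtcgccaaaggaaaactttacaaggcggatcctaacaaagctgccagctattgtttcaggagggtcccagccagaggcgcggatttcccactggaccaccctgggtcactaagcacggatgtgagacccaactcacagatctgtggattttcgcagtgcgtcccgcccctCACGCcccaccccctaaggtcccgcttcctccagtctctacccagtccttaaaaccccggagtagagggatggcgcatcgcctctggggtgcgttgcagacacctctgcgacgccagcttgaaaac
The *Ahrr* window held 3 cores, beginning at -107, -82, and -27 from the start site, and the last of them is part of a match to the longer form TNGCGTG. The other 3 windows held 1 core each, beginning at -170 in *Tiparp* and -76 in *Cyp1b1*, both on the opposite strand, and at -54 in *Cyp1a1*. Searched on both strands, GCGTG was present in 32.4% of 32841 promoters of the same length, 3 or more copies were present in 3.92%, and TNGCGTG, every match of which contains GCGTG, was present in 5.07%. The *Arnt* window held 1 GCGTG core and 2 matches to TGACNNNGC, the antioxidant response element, which 12.4% of promoters hold. The *Nqo1* window held neither motif. Of the 7 members, *Ahr* was not matched in the promoter table. A match describes these letters only, and the well-studied response elements of *Cyp1a1* lie further upstream than the window shown.

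*Ahr*, *Ahrr*, and *Tiparp* were higher in all TRM-like samples than in any TEff sample. *Arnt* and *Nqo1* overlapped between the groups, and *Cyp1a1* and *Cyp1b1* were at the limit of detection. *Ahr*, *Ahrr*, and *Tiparp* were the 3 members past the threshold, all higher in TRM-like cells, of 6 that could be tested. Of all genes tested, 1.52% were called higher and 1.48% lower, and nothing is read from the members' count because the contrast was known when they were chosen. The 3 genes stayed past the threshold with any 1 library left out, which for the same reason is a description and not a test. Without TRM-like replicate 3 the shares of all genes called were 6.38% higher and 7.67% lower. In 20.3% of all genes tested the CPM values of the groups did not overlap, 10.6% with TRM-like samples higher. In bulk RNA, fewer cells of a type and less RNA per cell cannot be told apart, so a difference may lie in the share of cells that express a gene or in the level in each.

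**Figure D1:**
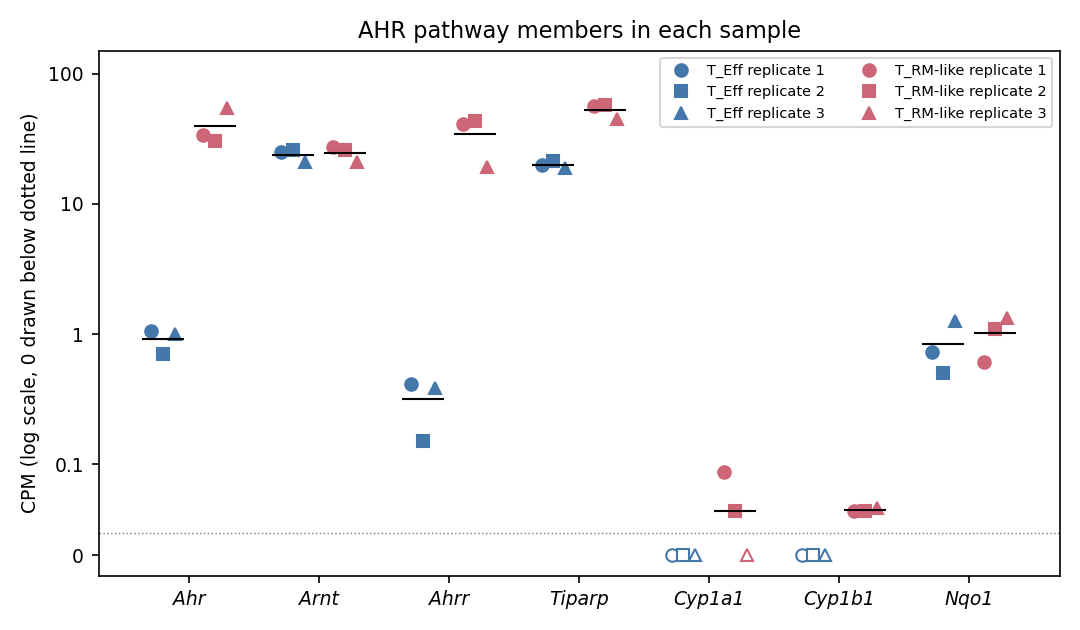
Level of the 7 members in each sample, in CPM on a log axis. Each point is 1 replicate, horizontal lines are group means (n = 3), and open symbols under the dotted line are samples with 0 counts. *Ahr* and *Ahrr* lay at 1.05 CPM or lower in TEff samples and at 19.2 CPM or higher in TRM-like samples, while the points of *Arnt* and *Nqo1* overlapped.

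The receptor itself was close to silent in TEff cells. *Ahr* (ENSMUSG00000019256, GRCm39 chromosome 12, 35547973 to 35585057, minus strand) had 23, 14, and 18 counts in TEff replicates 1, 2, and 3, which is 1.05, 0.709, and 0.995 CPM. It had 780, 698, and 1186 counts in TRM-like replicates 1, 2, and 3, or 34.02, 30.5, and 54.7 CPM. The groups did not overlap, and TRM-like replicate 3 was the highest. The mean went from 0.918 ± 0.184 CPM (SD, n = 3) to 39.7 ± 13.1 CPM (SD, n = 3), a log2 fold change of 5.42 ± 0.30 (SE) with a 95% interval of 4.75 to 6.10, or 42.9-fold. Without TRM-like replicate 3, the log2 fold change was 5.11 ± 0.18 (SE), and it stayed between 5.11 and 5.58 whichever library was left out. *Ahr* ranked 43rd of the 26154 genes tested by log2 fold change, from the highest. That order includes 2822 genes at or under 3 counts in 1 group and 1112 in both groups. An antisense noncoding gene, *Gm48236*, overlaps 127 exonic bases of *Ahr* and had 0 counts in the TEff samples and 10, 4, and 3 in TRM-like samples. Whether reads were counted by strand is not given in the sources used here, and without strand the reads of the shared stretch cannot be assigned.

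The partner of the receptor was expressed in both groups, with overlapping levels. *Arnt* (ENSMUSG00000015522, chromosome 3, 95341365 to 95404551, plus strand), which also pairs with hypoxia-inducible factors, was at 25.1, 25.8, and 20.9 CPM in TEff samples. TRM-like replicates 1, 2, and 3 held 27.2, 26.1, and 20.9 CPM. The ranges overlapped, with replicate 3 the lowest in both groups. The log2 fold change was 0.05 ± 0.15 (SE), with a 95% interval of -0.30 to 0.40, and its sign changed when a library was left out (-0.02 without TEff replicate 3 or without TRM-like replicate 1). Per kilobase of gene length, the *Ahr* level was 0.0365, 0.0239, and 0.0413 times that of *Arnt* in TEff replicates 1, 2, and 3, and 1.09, 1.01, and 2.27 times in the TRM-like replicates. The receptor transcript was thus well below that of its partner in every TEff sample and equal to or above it in every TRM-like sample.

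The repressor showed the largest difference of the members tested with more than 3 counts in each group. *Ahrr* (ENSMUSG00000021575, chromosome 13, 74359237 to 74440462, minus strand) competes with AHR for ARNT and is itself switched on by AHR. It had 9, 3, and 7 counts in TEff replicates 1, 2, and 3, or 0.412, 0.152, and 0.387 CPM, and 944, 986, and 416 counts in the TRM-like replicates, or 41.2, 43.1, and 19.2 CPM. The groups were far apart, and TRM-like replicate 3, the highest for *Ahr*, was the lowest TRM-like sample for *Ahrr*. Means were 0.317 ± 0.143 CPM and 34.5 ± 13.3 CPM (SD, n = 3 each), and the log2 fold change was 6.74 ± 0.44 (SE), with a 95% interval of 5.73 to 7.74, or 107-fold. Without TRM-like replicate 3 it was 7.01 ± 0.21 (SE), and leaving out each library in turn gave 6.41 to 7.01. Because the TEff counts were few, the size of this fold rests on 19 reads in 59840932. Per kilobase, *Ahrr* was 0.457, 0.250, and 0.454 times *Ahr* in TEff samples. The ratio was 1.41 and 1.65 in TRM-like replicates 1 and 2 but 0.409 in TRM-like replicate 3, which lay within the TEff range.

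*Tiparp* (ENSMUSG00000034640, chromosome 3, 65435320 to 65463365, plus strand) encodes a mono-ADP-ribosyltransferase that is induced by AHR and limits its activity. Unlike *Ahr* and *Ahrr*, it was already well expressed in TEff cells, at 19.8, 21.3, and 18.8 CPM. TRM-like replicates 1, 2, and 3 held 56.2, 57.9, and 44.5 CPM. No TRM-like sample fell near the TEff range, and replicate 3 was the lowest of the TRM-like samples. The means were 19.97 ± 1.27 and 52.9 ± 7.27 CPM (SD, n = 3 each), a log2 fold change of 1.40 ± 0.15 (SE) with a 95% interval of 1.08 to 1.73, or 2.65-fold. The value was 1.505 ± 0.11 (SE) without TRM-like replicate 3 and 1.33 to 1.505 over the libraries left out in turn. Over the TEff mean, TRM-like replicates 1, 2, and 3 were at 2.82, 2.90, and 2.23 times for *Tiparp*, against 37.0, 33.2, and 59.5 times for *Ahr*. *Tiparp* shares 1600 exonic bases with the antisense noncoding gene *Gm38503*, which had 9 to 18 counts per TEff sample and 18 to 31 per TRM-like sample.

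The cytochrome P450 targets were at 0 counts in TEff samples and at 2 counts or fewer in each TRM-like sample. *Cyp1a1* (ENSMUSG00000032315, chromosome 9, 57595211 to 57611107, plus strand), the textbook readout of AHR activity, had 0 counts in all TEff samples and 2, 1, and 0 in TRM-like replicates 1, 2, and 3. *Cyp1b1* (ENSMUSG00000024087, chromosome 17, 80008966 to 80022532, minus strand), a related enzyme of dioxin and steroid metabolism, had 0 in all TEff samples and 1 in each TRM-like sample. For both genes, 0 of 59840932 TEff counts allows up to 0.0501 CPM (3 counts), and the 3 counts of 67448504 in TRM-like samples make 0.0445 CPM. The TEff value is an upper limit that covers counting error only. The TRM-like value is the observed level and not a limit, so they are unlike measures. In TRM-like replicates 1 and 2, the 95th percentile of the silent receptor genes was 1.54 and 1.81 counts per kilobase. *Cyp1a1* was below it at 0.718 and 0.359, and *Cyp1b1* was below it at 0.192 in each. In TRM-like replicate 3 that percentile was 0, with *Cyp1a1* at 0 and *Cyp1b1*, from 1 read, above it at 0.192. No fold change is given for either gene, since both groups were at or under 3 counts. The other 5 members lay above the 95th percentile of the silent genes in TRM-like replicates 1 and 2. In the TEff samples, as in TRM-like replicate 3, that percentile was 0. Any read lies above it there, so it sets no limit for the low TEff counts of *Ahr* and *Ahrr*.

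*Nqo1* (ENSMUSG00000003849, chromosome 8, 108113835 to 108129934, minus strand), a quinone reductase that answers to both AHR and the antioxidant factor NRF2, was low throughout. TEff replicates held 16, 10, and 23 counts (0.732, 0.506, and 1.27 CPM) and TRM-like replicates 14, 25, and 29 (0.611, 1.09, and 1.34 CPM). The groups overlapped, with a log2 fold change of 0.28 ± 0.44 (SE) and a 95% interval of -0.71 to 1.28. With these few counts and this spread between replicates, a difference of either sign within that interval remains possible. Among members, then, the order of levels per kilobase in TEff cells was *Arnt* (4.96 ± 0.540 RPKM) and *Tiparp* (4.76 ± 0.303), which did not differ beyond their spread, then *Nqo1* (0.538 ± 0.253), *Ahr* (0.166 ± 0.0331), and *Ahrr* (0.0666 ± 0.0301, SD, n = 3). In TRM-like cells *Tiparp* was first (12.6 ± 1.73 RPKM), followed by *Ahrr* (7.25 ± 2.79), *Ahr* (7.16 ± 2.36), and *Arnt* (5.13 ± 0.702), with *Nqo1* last of the 5 (0.652 ± 0.238, SD, n = 3). The neighbours *Ahrr* and *Ahr* did not differ beyond their spread in that order, nor did *Ahr* and *Arnt*.

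**Figure D2:**
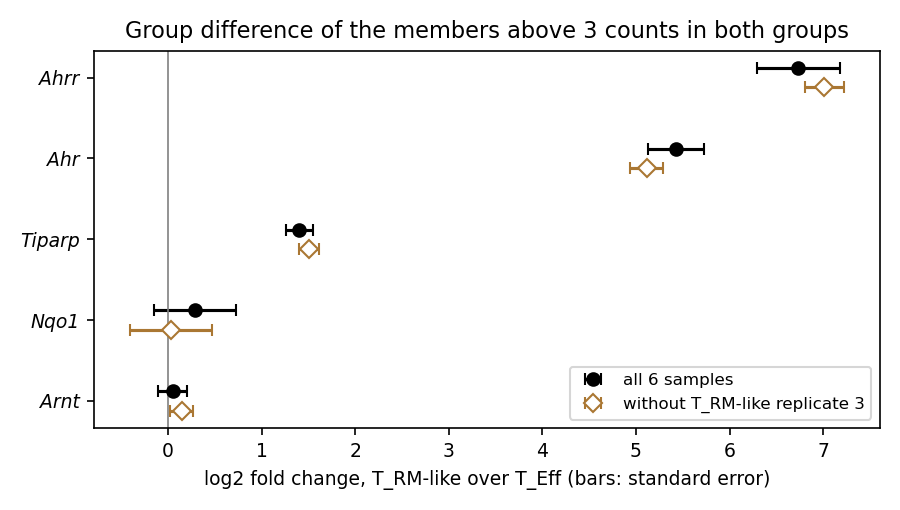
Log2 fold change of TRM-like over TEff cells for the 5 members with more than 3 counts in each group, with bars for the SE, using all 6 samples and without TRM-like replicate 3. *Ahrr* (6.74 and 7.01), *Ahr* (5.42 and 5.11), and *Tiparp* (1.40 and 1.505) lay well above 0 in both, and *Arnt* and *Nqo1* lay near 0.

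The chaperone complex that holds AHR in the cytosol was examined next. Of its 5 genes, 1 rose and none fell by edgeR, DESeq2, or limma-voom, also at an unadjusted p below 0.05 (edgeR). Over all genes tested, 1.52% were called higher and 1.48% lower (edgeR). *Src*, a tyrosine kinase that is released from the complex when ligand binds, was at 0.137, 0.203, and 0.166 CPM in TEff samples and 8.11, 7.38, and 5.95 CPM in TRM-like samples. The log2 fold change was 5.37 ± 0.30 (SE), with an adjusted p of 7.69e-05 from edgeR's quasi-likelihood test. The groups were separated by a wide gap, and the TEff level rests on 10 reads in all. The chaperones *Hsp90ab1* and *Hsp90aa1* and the cochaperone *Ptges3* had log2 fold changes of -0.17, -0.54, and -0.20, and none passed the threshold. The median of the 5 genes was -0.17, against 0.02 over all genes. Without TRM-like replicate 3, *Hsp90aa1* (-1.23, adjusted p = 0.000373, edgeR) and *Ptges3* (-0.62, adjusted p = 0.00777, edgeR) fell, where 7.67% of all genes were called lower. In that library *Hsp90aa1* was at 330 CPM, against 121 and 114 CPM in TRM-like replicates 1 and 2 and 195 to 317 CPM in TEff samples.

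AHR and ARNT belong to the bHLH-PAS family, whose members compete for partners and coactivators. Of 15 relatives and coactivators tested, of 16 listed, none rose and 2 fell (3 and 4 at an unadjusted p below 0.05, edgeR), and the median log2 fold change was 0.06. The shares of all genes called were 1.52% higher and 1.48% lower. *Hif1a*, the oxygen-regulated factor that also needs ARNT, was at 322, 298, and 310 CPM in TEff samples and 142, 154, and 172 CPM in TRM-like samples. It fell by 0.99 on the log2 scale (SE 0.13, adjusted p = 0.00479, edgeR). The groups did not overlap, though without TEff replicate 1 the adjusted p was 0.0538 at a log2 fold change of -0.95. *Ncoa1*, a coactivator of AHR and nuclear receptors, went from 34.7, 39.5, and 31.8 CPM to 22.6, 23.3, and 22.7 CPM, a log2 fold change of -0.63 ± 0.13 (SE, adjusted p = 0.0383, edgeR). The call was kept without TRM-like replicate 3 and lost without any other library, with adjusted p-values of 0.117 to 0.187 and log2 fold changes of -0.54 to -0.68. No relative rose with DESeq2 or limma-voom, while 3 fell with DESeq2 (*Bmal2* in addition) and 2 with limma-voom. Without TRM-like replicate 3, 2 relatives rose (*Arnt2* and the clock gene *Bmal1*) and 3 fell (*Hif1a*, *Ncoa1*, and *Bmal2*). The shares of all genes called were then 6.38% higher and 7.67% lower. The other partner-type gene, *Arnt2*, had at most 3 counts in a TEff sample and 11, 10, and 2 counts in TRM-like replicates 1, 2, and 3. TRM-like replicates 1 and 2 are the libraries with reads on many silent genes.

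Further targets assigned to AHR in liver or in T cells gave the most calls of the lists examined. Of 14 genes listed, 8 could be tested, 5 rose, and none fell (6 and 0 at an unadjusted p below 0.05, edgeR, with 0 lower by DESeq2 and limma-voom as well), with a median log2 fold change of 1.26 over the 8 genes. Of all genes tested, 1.52% were called higher and 1.48% lower. Like the other lists, this list was chosen with earlier results of these data known, so nothing is read from its count. The 5 genes are *Gpr15*, *Maf*, *Entpd1*, *Ikzf3*, and *Nfe2l2*, the last of which is also the head of the NRF2 list below. The liver-type targets were not among them. *Cyp1a2*, *Aldh3a1*, *Ugt1a6a*, *Ugt1a6b*, and *Gsta1*, and also the cytokine gene *Il22*, had 0 counts in every TEff sample and at most 2 in any TRM-like sample, and were not tested. *Ugt1a6a* and *Ugt1a6b* share exons, so their counts are uncertain.

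*Gpr15*, a chemoattractant receptor that guides T cells to the colon and skin, was at 0.594, 1.01, and 0.332 CPM in TEff samples. TRM-like replicates 1, 2, and 3 held 14.7, 17.3, and 45.4 CPM. As for *Ahr*, replicate 3 was the highest, and no values of the groups overlapped. The log2 fold change was 5.30 ± 0.55 (SE, adjusted p = 0.00144, edgeR), and 4.599 without TRM-like replicate 3. *Maf*, a transcription factor of cytokine-producing and resident T cells, went from 1.28, 1.62, and 1.38 CPM to 12.8, 12.3, and 6.18 CPM, with replicate 3 the lowest TRM-like sample, as for *Ahrr*. Its log2 fold change was 2.87 ± 0.31 (SE, adjusted p = 0.00188, edgeR), and it rose with each library left out.

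*Entpd1*, which encodes CD39, an enzyme that degrades extracellular ATP, was at 13.7, 15.8, and 15.7 CPM in TEff samples and 30.4, 32.1, and 28.0 CPM in TRM-like samples. The spread within each group was small beside the difference, a log2 fold change of 1.00 ± 0.13 (SE, adjusted p = 0.00458, edgeR), though the adjusted p was 0.0503 without TEff replicate 1, at a log2 fold change of 0.94. *Ikzf3*, the lymphoid factor Aiolos, went from 71.2, 97.7, and 71.8 CPM to 244, 240, and 145 CPM. Its log2 fold change was 1.38 ± 0.23 (SE, adjusted p = 0.0128, edgeR), with TRM-like replicate 3 between the TEff samples and the other TRM-like samples. The call was lost without TEff replicate 1, TEff replicate 3, or TRM-like replicate 2, at adjusted p-values of 0.102, 0.103, and 0.0526 and log2 fold changes of 1.31, 1.33, and 1.27. The 3 tested genes of the list that did not pass were *Scin*, an actin-severing protein (log2 fold change 3.00, adjusted p = 0.0930, edgeR), *Il10* (1.13, adjusted p = 0.397), and *Socs2* (-0.13, adjusted p = 0.855). *Scin* rose without TRM-like replicate 3, at 3.36 with an adjusted p of 0.00238 (edgeR), and also with DESeq2, with no filter, and with the replicate block. It had 2, 3, and 0 counts in TEff replicates 1, 2, and 3 and 25, 17, and 6 in the TRM-like replicates. Its highest counts thus lay in the libraries with reads on many silent genes.

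**Figure D3:**
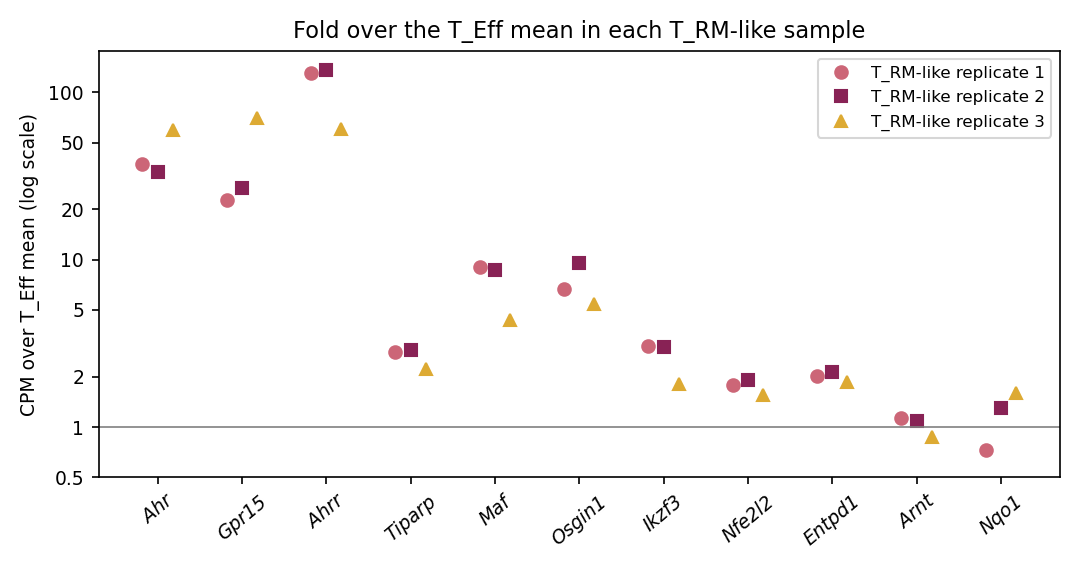
CPM of each TRM-like sample over the TEff mean for members and further pathway genes, on a log axis where 1 is no difference. TRM-like replicate 3 is above the other TRM-like samples for *Ahr* (59.5 against 37.0 and 33.2) and *Gpr15* (70.2 against 22.8 and 26.8) and below them for *Ahrr* (60.6 against 130.0 and 136), *Tiparp*, *Maf*, and *Ikzf3*.

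*Nqo1* is shared between AHR and NRF2, the factor that turns on genes against oxidative stress, so the NRF2 genes were set beside it. All 15 were tested, of which 2 rose and none fell (3 and 2 at an unadjusted p below 0.05, edgeR, and 1 lower by both DESeq2 and limma-voom), with a median log2 fold change of -0.04. Over all genes, 1.52% were called higher and 1.48% lower. *Nfe2l2*, the gene of NRF2 itself and also a target of AHR, was at 22.8, 25.8, and 21.3 CPM in TEff samples and 41.7, 44.8, and 36.0 CPM in TRM-like samples. The groups did not overlap, and the log2 fold change was 0.81 ± 0.14 (SE, adjusted p = 0.0174, edgeR). The call was kept without TEff replicate 2 or TRM-like replicate 3 and lost without any other library, with adjusted p-values of 0.0663 to 0.127 and log2 fold changes of 0.73 to 0.80. *Osgin1*, an oxidative stress gene with growth-inhibiting activity, went from 0.549, 0.506, and 0.995 CPM to 4.58, 6.51, and 3.69 CPM. It rose by 2.86 ± 0.35 (SE, adjusted p = 0.00315, edgeR) on the log2 scale and with each library left out. Widely used NRF2 targets did not pass the threshold, among them *Txnrd1* (-0.09, adjusted p = 0.874, edgeR), *Gclc* (-0.06, adjusted p = 0.907), *Gclm* (0.48, adjusted p = 0.0865), and *Hmox1* (-0.91, adjusted p = 0.230). *Srxn1*, which repairs oxidized peroxiredoxins, lay just outside it at -1.22 with an adjusted p of 0.0509 (edgeR). Without TRM-like replicate 3, *Srxn1* and *Hmox1* fell, and *Blvrb* joined the 2 genes that rose. The shares of all genes in that fit were 6.38% higher and 7.67% lower.

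Genes that make or import AHR ligands were the last group. Kynurenine and indole derivatives of tryptophan are ligands of the receptor, and LAT1 with its heavy chain imports both tryptophan and kynurenine. Of 13 genes, 10 were tested and none passed the threshold by edgeR's quasi-likelihood test, DESeq2, or limma-voom, with 2 higher and 3 lower at an unadjusted p below 0.05 (edgeR). The median log2 fold change was -0.10, and of all genes 1.52% were called higher and 1.48% lower. The smallest p belonged to *Slc3a2*, the heavy chain of the transporter, at 89.4, 80.8, and 91.9 CPM in TEff samples and 51.8, 58.0, and 68.1 CPM in TRM-like samples (log2 fold change -0.56 ± 0.14 (SE), adjusted p = 0.0821, edgeR). Its light chain *Slc7a5*, named after its values were seen, was at 101, 62.2, and 83.1 CPM in TEff samples. It was at 20.02 and 17.3 CPM in TRM-like replicates 1 and 2 and at 81.4 CPM in TRM-like replicate 3, inside the TEff range. Its log2 fold change was -1.06 (adjusted p = 0.411, edgeR) with that library and -2.15 (adjusted p = 3.95e-06) without it, and *Slc3a2* fell as well without it (-0.68, adjusted p = 0.000911). *Kyat1* also fell without it, and *Afmid* and *Tph1* rose, beside 6.38% of all genes called higher and 7.67% lower in that fit. *Tph1* had 1, 0, and 1 counts in TEff replicates 1, 2, and 3 and 4, 10, and 1 in the TRM-like replicates. The tryptophan-degrading enzymes *Ido1* and *Ido2* and the kynurenine enzyme *Kynu* had 0 counts in TEff samples and were not tested, and *Tdo2* did not pass (0.11, adjusted p = 0.952, edgeR).

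**Figure D4:**
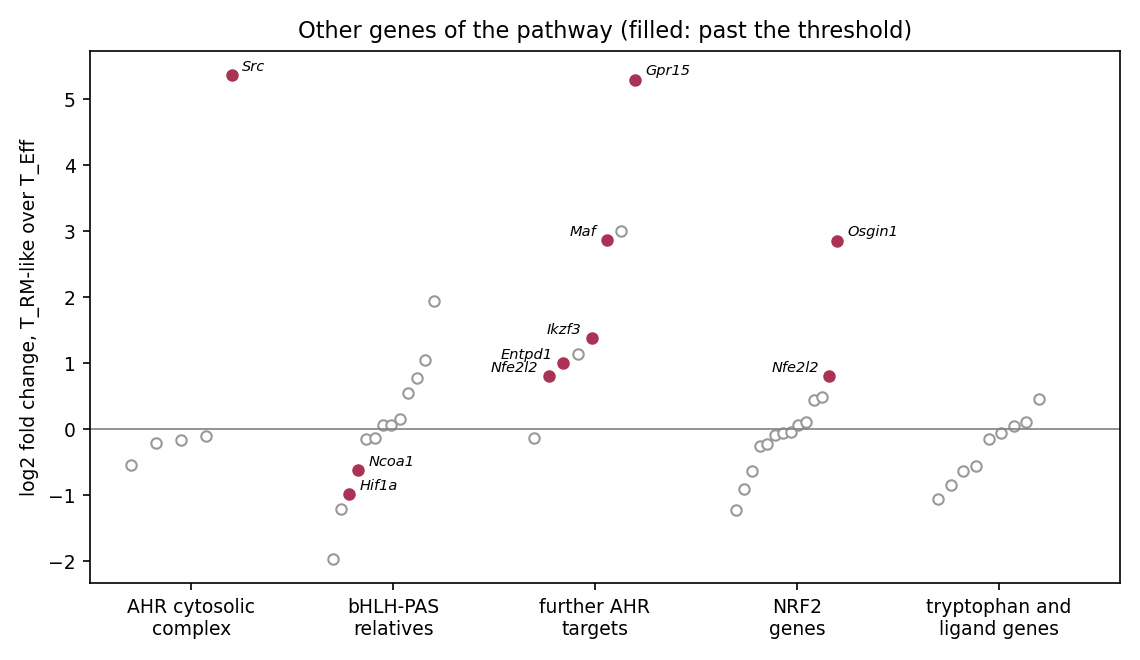
Log2 fold change of TRM-like over TEff cells for each gene of the 5 pathway lists with more than 3 counts in each group (5, 13, 8, 14, and 9 genes plotted). Filled points passed the threshold, which 1 gene of the cytosolic complex, 2 bHLH-PAS relatives, 5 further targets, 2 NRF2 genes, and 0 ligand genes did.

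The genes whose levels followed *Ahr* most closely over the 6 samples were named by Pearson's r of log2 CPM among the 14821 genes whose count was 10 or more in all samples. The samples fall into 2 groups, so the value mostly reflects the group difference and is given as a description. They were *Cnksr3*, a scaffold of kinase signaling (r = 0.997), *Pcgf5*, a Polycomb component (r = 0.997), *Cpd*, carboxypeptidase D (r = 0.995), *Ikzf4*, the lymphoid factor Eos (r = 0.994), and *Rab11fip4*, an adaptor of recycling endosomes (r = 0.993). Because they were picked for following *Ahr*, their group differences follow from the choice, and no p-value is given. *Cpd* was at 23.8, 18.9, and 22.5 CPM in TEff samples and 143, 139, and 140 CPM in TRM-like samples, a log2 fold change of 2.70 ± 0.14 (SE). *Ikzf4* went from 5.03, 3.85, and 4.03 CPM to 15.4, 16.0, and 22.2 CPM (2.05 ± 0.20, SE), with TRM-like replicate 3 the highest, as for *Ahr*. The other 3 differed by less, with log2 fold changes of 0.33 to 0.93. *Tiparp* (r = 0.956) was 173rd in this order, and *Ahrr*, *Src*, and *Gpr15* were too low in TEff samples to enter it.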

How the data were processed

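Sequencing libraries of stranded total RNA from 3 TEff and 3 TRM-like samples were trimmed (Cutadapt 4.8, per the labels), mapped, and counted by the authors with Rsubread on the GENCODE M34 annotation of GRCm39. The authors deposited raw counts per gene with gene lengths and without normalization. The strand setting and the treatment of multimapping reads are not given in the sources used here. The authors analysed counts in DESeq2 (1.40.2, per the labels), and they modeled a batch effect and removed it from the values plotted. Whether batch entered their test is not given in the sources used here. The batch is not named in the sources used here, and none was removed here.

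Genes were named and placed by a newer GENCODE release for GRCm39 (56620 of 57126 genes matched). Counts were tested with edgeR 4.0.16 in R 4.3.3 (TMM, glmQLFit, glmQLFTest, group only), over genes counted (1 or more) in 3 samples or more, with Benjamini-Hochberg adjustment over all 26154 genes tested. The threshold, after the study's methods, was a log2 fold change beyond 0.58 in size with an adjusted p below 0.05. The SE is the size of the log2 fold change divided by the square root of F. CPM used TMM-scaled library sizes, RPKM is CPM per kilobase of the deposited length, and intervals are 95%. Correlations with *Ahr* added a prior count of 2 before the log2. The fit was checked on simulated data.

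The members and lists were chosen with earlier results of these data known. All members are named, with up to 4 genes past the threshold with the smallest p in each list (otherwise the 1 smallest) and the 5 genes most like *Ahr*; other genes were named after their values were seen. Alternatives were DESeq2 1.42.0, limma-voom (limma 3.58.1), DESeq2 size factors, library totals, no filter, filterByExpr, at least 10 counts in every sample, the adjusted p alone, the replicate block, and each library left out. The values of 1 gene of the cytosolic complex list are not reported here.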

Additional observations from a re-analysis of the deposited data

How the results depend on the processing

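*Ahr*, *Ahrr*, and *Tiparp* were past the threshold in every alternative in which they were tested. Their log2 fold changes were 5.11 to 5.58, 6.41 to 7.01, and 1.33 to 1.505. Since the members were chosen with the contrast known, these calls describe the genes and test nothing. *Ahrr* was not tested when at least 10 counts were asked of every sample, which left 2 members past the threshold. *Arnt* ran from -0.025 to 0.15 with each library left out, with the sign changed to -0.024 without TEff replicate 3 and -0.025 without TRM-like replicate 1. No fold change is given for *Cyp1a1*, which was not tested, or *Cyp1b1*, which did not pass the threshold. In the cytosolic complex, 0 genes rose with at least 10 counts in every sample, with or without the replicate block, because *Src* was not tested, and 1 fell with the replicate block. In the bHLH-PAS relatives, 1 gene (*Npas2*) rose with no filter and with the replicate block. *Bmal2* joined the genes that fell in those settings and with DESeq2. In the NRF2 genes, 1 (*Srxn1*) fell with DESeq2 size factors, library totals, no filter, DESeq2, limma-voom, and both forms of the replicate block. In the ligand genes, 1 (*Slc7a5*) fell with no filter and both forms of the replicate block. The cause of these changes was not tested. With each library left out in turn, the complex gave 0 to 2 genes lower, the bHLH-PAS relatives 0 to 2 higher and 0 to 3 lower, the further targets 2 to 6 higher, the NRF2 genes 1 to 3 higher and 0 to 2 lower, and the ligand genes 0 to 2 higher and 0 to 3 lower. The higher end came without TRM-like replicate 3, and the 2 further targets without TEff replicate 1. Over all genes, 786 were called, against 1264 with DESeq2, 1868 with no filter, 2034 with the replicate block, and 263 to 3579 with a library left out; with no filter, the median of all genes was 0.38 in place of 0.02. The labels number replicates alike in both groups. The deviations of same-numbered samples from their group means correlated at -0.292, 0.309, and 0.389 over 14822 genes. TRM-like replicate 1 correlated best with TEff replicate 2 (0.519). With 3 samples per group and TRM-like replicate 3 apart from the others, these values cannot decide whether same-numbered samples share an origin. Depth limits *Cyp1a1* and *Cyp1b1*, at 3 counts or fewer in each group, and the size of the *Ahrr*, *Ahr*, and *Src* folds, which rest on few TEff reads.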

Other observations

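Genes beside the members were read to see whether the neighbourhood moved with them. *Exoc3*, an exocyst subunit 2301 bases from *Ahrr*, went from a mean of 52.7 CPM in TEff samples to 99.1 CPM in TRM-like samples, a log2 fold change of 0.91 ± 0.15 (SE, adjusted p = 0.0130, edgeR). It ran from 0.82 to 1.03 with each library left out, and the call was kept without TRM-like replicate 3 and lost without any other library. On the other side of *Ahrr*, *Pdcd6* (0.15) and *Sdha* (-0.01) did not pass the threshold, nor did *Slc9a3* beyond *Exoc3* (1.32, adjusted p = 0.418, edgeR). The neighbours of *Ahr* (*Snx13*, *Hdac9*, *Tspan13*, and *Bzw2*) and of *Tiparp* (*Ssr3*, *Kcnab1*, *Lekr1*, and *Ccnl1*) did not pass it either. *Slc9a3* and *Bzw2* passed it without TRM-like replicate 3. Of the helper-lineage markers, *Zbtb7b*, the factor of CD4 T cells known as ThPOK, fell by 0.82 (log2 scale, adjusted p = 0.0335, edgeR), with -0.95 to -0.68 over the libraries left out and the call lost without TEff replicate 1, 2, or 3 or TRM-like replicate 1, while *Cd8a* rose by 1.14 (adjusted p = 0.00219, edgeR).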
